A study of Mus musculus with 12 samples.

Results

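Poly(A) sites whose signal hexamer carried G or C at its second base were taken from a catalogue of RNA 3′ ends in mouse embryonic stem cells. A site was a member if the hexamer listed for it was AGTAAA or ACTAAA, which differ from AATAAA, the most frequent hexamer of the catalogue, at base 2 only. ATTAAA, the T variant of the same base, was not a member, and mitochondrial sites were left out. The rule gave 6392 members of 145099 sites, 4991 with AGTAAA and 1401 with ACTAAA. They made up 4.94% of the 129401 sites that had a hexamer. The hexamers compared are shown with base 2 in capitals, because that base is all that sets them apart.
G variant: aGtaaa
C variant: aCtaaa
T variant: aTtaaa
canonical signal: aAtaaa

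The cells were Exosc3 conditional knockout clones derived from the V6.5 line, all maintained in doxycycline at 0.1 μg/ml, which kept the exosome subunit Exosc3 present. Of the 12 libraries, 2 came from cells kept in doxycycline and 2 from cells withdrawn from it for 3 days. The other 8 came from cells with or without doxycycline for 2 days that were nucleofected with 15 μM of U1 AMO or Scr AMO and harvested 8 hours later, 2 libraries in each of 4 groups. An AMO is an antisense oligonucleotide, here one that blocks U1 snRNP or a scrambled control. RNA ends were read by 2P-seq, which sequences from the poly(A) tail. The catalogue is 1 table for the whole series, with 0 columns that hold a value of a library. Depth, the identity of the cells by their marker genes, the level of any site and its response to Exosc3 loss or U1 inhibition were therefore not analysed here. The spread given below is between the 19 autosomes, which are not biological replicates, so each p-value measures how evenly a difference held over the genome. A difference between groups of sites given with its spread is the mean of the differences within autosomes. It can depart from the difference of the values over all sites.

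A poly(A) signal is the hexamer, usually AAUAAA in the RNA, that the cleavage and polyadenylation specificity factor binds a short way upstream of the point where the transcript is cut and tailed. Single-base variants are bound less tightly, and in mammals they are known to be more common at the upstream sites of genes that have several. A hexamer that happens to lie near a cut without serving as its signal was assumed to have no preferred distance, which was not tested. The distance between hexamer and site is the catalogue's own measure of how a hexamer is placed. Not every profile was level far from the cut, as given below for ACTAAA and ATTAAA.

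The G variant was 3.56 times as frequent as the C variant. AGTAAA was listed for 3.86% of sites with a hexamer (95% Wilson interval 3.75 to 3.96%) and ACTAAA for 1.08% (interval 1.03 to 1.14%). Across autosomes the AGTAAA share was lowest on chromosome 3 at 3.31%, had a median of 3.82% and was highest on chromosome 13 at 4.36% (mean 3.88% ± 0.279, SD, n = 19). The X chromosome, at 3.12%, lay below all 19. The ACTAAA share ran from 0.826% on chromosome 14 through a median of 1.08% to 1.28% on chromosome 17 (mean 1.08% ± 0.123), and the X chromosome, at 1.07%, lay within that range. The number of AGTAAA sites per ACTAAA site was between 3.06 on chromosome 3 and 5.15 on chromosome 14. Both variants lay on either strand in similar numbers, with 2405 and 2586 AGTAAA sites and 708 and 693 ACTAAA sites on plus and minus.

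The catalogue lists 1 hexamer per site, and pairs of neighbouring sites showed in which order the hexamers were taken. In 4128 pairs the hexamer listed for the upstream site lay within 100 nt of the downstream site wherever in the clusters the distance was counted from, so it was within reach there too. The downstream site was listed with that hexamer in 2875 pairs and with another in 1253, and in 0 pairs with none. Where AATAAA was within reach, AATAAA was listed in 1400 of 1400 pairs. The 1253 pairs held no contradiction, so they are compatible with 1 fixed order in which a hexamer is listed only where none placed before it is found within reach.

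AGTAAA stood at place 4 of that order and ACTAAA at place 11. With AGTAAA within reach of the downstream site (184 pairs), AGTAAA itself was listed in 94. The canonical AATAAA took 47 of the others, the T variant took 27 and TATAAA took the last 16. AGTAAA was in turn listed over 19 other hexamers in 54 pairs, among them AATACA in 9 and AAGAAA in 7. With ACTAAA within reach (55 pairs), ACTAAA itself was listed in 28. In the other 27 the canonical signal was listed 8 times, the T variant 6 times and the G variant 3 times, and 5 further hexamers took the rest, of which the latest in the order was AATGAA, in 1 pair. ACTAAA was listed over 8 hexamers in 9 pairs, so its place rests on few pairs, and AATTAA could not be placed before or after it. Under this order a member with G is a site with no canonical signal, no T variant and no TATAAA within reach, and a member with C is a site that also lacks 7 further hexamers. The part of this selection in the differences below was not tested.

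Most AGTAAA sites had the hexamer at the distance where poly(A) signals of the catalogue are most frequent, and ACTAAA sites did so less often. The AGTAAA count was highest at 20 nt, with 418, 507 and 480 sites at 19, 20 and 21 nt. ACTAAA was listed for 97, 93 and 97 sites at the same distances. Both peaks thus lay at nearly the same place. A distance of 15 to 30 nt was found for 3756 AGTAAA sites, or 75.3% (interval 74.04 to 76.4%), and for 777 ACTAAA sites, or 55.5% (interval 52.8 to 58.0%). On the autosomes the AGTAAA share had a low of 69.2% (chromosome 3), a median of 75.4% and a high of 80.5% (chromosome 19). The ACTAAA share had a low of 44.2% (chromosome 16), a median of 56.9% and a high of 68.3% (chromosome 18), so no autosome's ACTAAA share reached the lowest AGTAAA share. AGTAAA exceeded ACTAAA by a mean of 18.8 percentage points ± 5.86 (SD, n = 19), and did so on each of the 19 (adjusted p = 2.6e-05 over 26 comparisons, 2-sided sign-flip permutation test; the smallest adjusted value obtained).

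**Figure D1:**
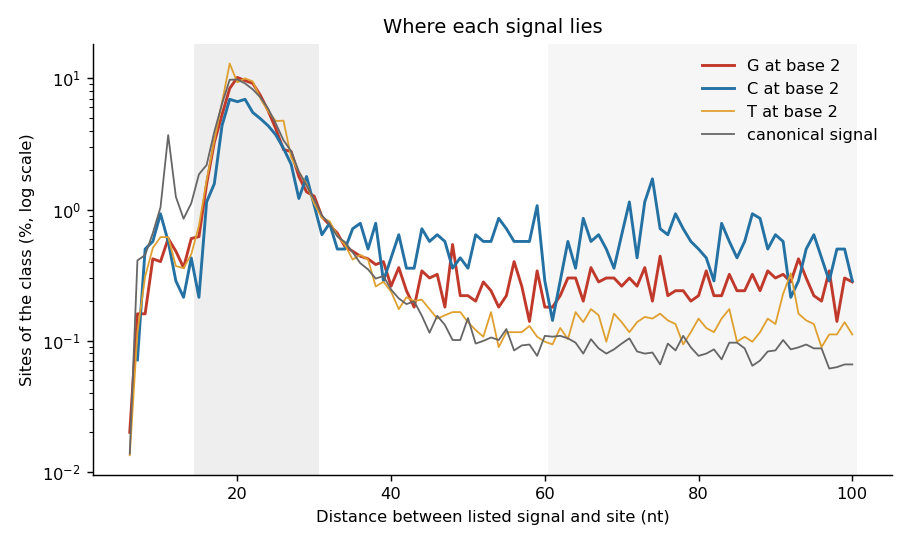
Percent of sites of each class (log axis) by how many nt separate the listed signal from the site, for signals with G, C or T at base 2 and for the canonical signal, with 15 to 30 nt and 61 to 100 nt shaded. All 4 lines peak near 20 nt, and the C variant has the lowest peak and the highest level at 61 to 100 nt, 8.28 sites per nt of 1401.

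The sites that left the main window lay mostly farther away. ACTAAA was listed at 31 to 60 nt for 17.3% of its sites and at 61 to 100 nt for 23.6%, against 10.6% and 11.0% for AGTAAA. At the closest distances, 6 to 14 nt, the shares were 3.57% and 3.21%. The number of AGTAAA sites per ACTAAA site was 4.83 at 15 to 30 nt (exact binomial interval 4.47 to 5.23). It was 2.17 at 31 to 60 nt (interval 1.86 to 2.54), and 1.66 was its value at 61 to 100 nt (interval 1.44 to 1.90). The variants were therefore closest in number where a hexamer is farthest from the cut.

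From 61 to 100 nt the AGTAAA profile was level, at 13.7 sites per nt ± 3.21 (SD over distances, counting error 3.70). The ACTAAA profile was less even, at 8.28 sites per nt ± 4.13 (counting error 2.88), with a high of 24 sites at 74 nt. If those levels are carried into 15 to 30 nt and subtracted, 3537 AGTAAA sites (70.9% of all) and 644.6 ACTAAA sites (46.0% of all) remain above them. The same subtraction left 81.1% of ATTAAA sites and 78.3% of AATAAA sites. The ATTAAA level, 30.9 sites per nt ± 9.27 (counting error 5.56), was uneven too, with a high of 73 sites at 92 nt.

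The placement of each member was set beside that of the hexamers next to it in the search order. Sites per nt at 15 to 30 nt over sites per nt at 61 to 100 nt gave 17.1 for AGTAAA (exact binomial interval 15.7 to 18.8). TATAAA, at place 3, gave 10.7 (interval 9.94 to 11.5), and AAGAAA, at place 5, gave 3.27 (interval 3.02 to 3.54). Of places 3 to 12 the highest ratio after that of AGTAAA was 14.7 for CATAAA at place 8 (interval 13.1 to 16.5), which overlaps the AGTAAA interval. ACTAAA gave 5.87 (interval 5.15 to 6.69), between AATGAA at place 10 with 5.40 (interval 4.81 to 6.06) and AATAGA at place 12 with 6.54 (interval 5.57 to 7.69). The intervals of these 3 overlap. With the near window widened to 10 to 35 nt the ratio was 11.4 for AGTAAA (interval 10.4 to 12.4), 7.28 for TATAAA, 3.10 for AAGAAA and 9.82 for CATAAA (interval 8.75 to 11.05). ACTAAA then gave 3.97 (interval 3.496 to 4.53), AATGAA gave 3.80 and AATAGA gave 4.49. The size of the ratio thus depends on the window, while the hexamers named here keep their order by ratio.

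**Figure D2:**
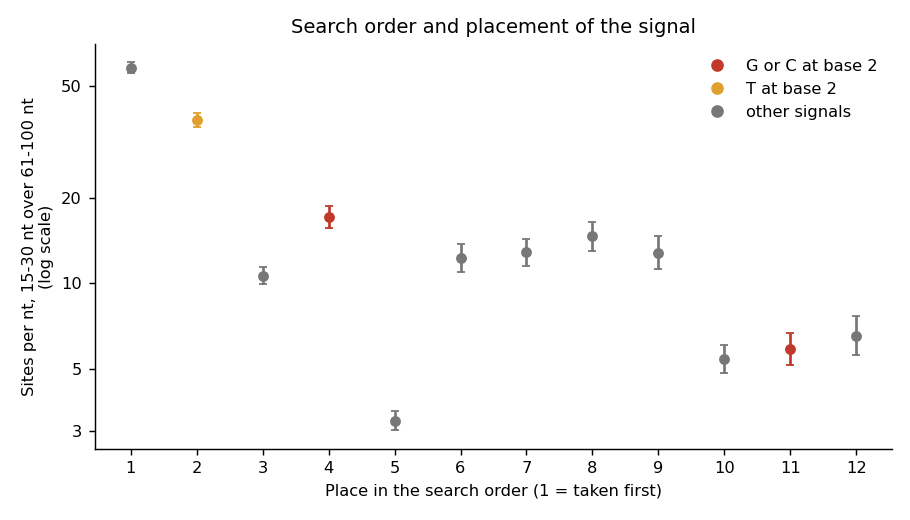
Sites per nt at 15 to 30 nt over sites per nt at 61 to 100 nt (log scale) against the place of the signal in the search order, with exact 95% binomial intervals as bars. Only signals whose order is unknown against at most 3 others are drawn. AATTAA, also at place 11 with a ratio of 3.22, is left out. The G variant at place 4 stands at 17.1, above its neighbours in the order, and the C variant at place 11 stands at 5.87, between the drawn signals at places 10 and 12.

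Some far members may have been listed with a hexamer that a site upstream also has. Of AGTAAA sites at 61 to 100 nt, 140 of 548 (25.5%, interval 22.1 to 29.4%) had a distance that could be that of the AGTAAA listed for a site within 100 nt upstream. Among ACTAAA sites this held for 31 of 331 (9.37%, interval 6.68 to 13.0%). At 15 to 30 nt it held for 1 AGTAAA site and 1 ACTAAA site. At 61 to 100 nt it held more often for ATTAAA, in 542 of 1236 sites (43.9%), and for AATAAA, in 1255 of 2241 (56.0%). The far levels subtracted above include such sites for each of these hexamers. Without all such sites the ratio of near to far sites was 23.0 for AGTAAA and 6.47 for ACTAAA. The ratio rises by construction here, since the sites left out were mostly far ones.

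Against ATTAAA and AATAAA, members lay less often in the main window. The shares of the other hexamers were not compared in this way. The share at 15 to 30 nt was 70.9% for members (interval 69.8 to 72.0%), 83.3% for ATTAAA (interval 82.8 to 83.8%) and 79.7% for AATAAA (interval 79.4 to 79.97%). The difference from ATTAAA was -12.1 percentage points ± 4.16 (SD, n = 19) and that from AATAAA -8.54 ± 3.63, each negative on 19 of 19 autosomes (adjusted p = 2.6e-05 for both, permutation test). The AATAAA share is lowered by sites at 6 to 14 nt, which made up 9.48% of them. With a window of 10 to 35 nt the difference from AATAAA was -13.99 percentage points and that from ATTAAA -11.9. Which of the differences is larger thus depends on the window.

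Within the main window the members lay slightly farther from the cut than AATAAA. The mean distance of members at 15 to 30 nt was 21.8 nt, against 21.5 nt for AATAAA, a difference of 0.258 nt ± 0.205 that was positive on 16 of 19 autosomes (adjusted p = 0.00026, permutation test). Members minus ATTAAA (21.6 nt) gave 0.143 nt ± 0.206, positive on 13 of 19 (adjusted p = 0.0153, permutation test). AGTAAA averaged 21.7 nt and ACTAAA 22.0 nt, a difference of -0.328 nt ± 0.545, negative on 14 of 19 (adjusted p = 0.0257, permutation test). The calls against ATTAAA and between the variants were lost on the minus strand alone (adjusted p = 0.308 and 0.409), at 10 to 35 nt (0.116 and 0.0762) and when only lone sites and the last site of a run were used (0.313 and 0.318), all by the permutation test.

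**Figure D3:**
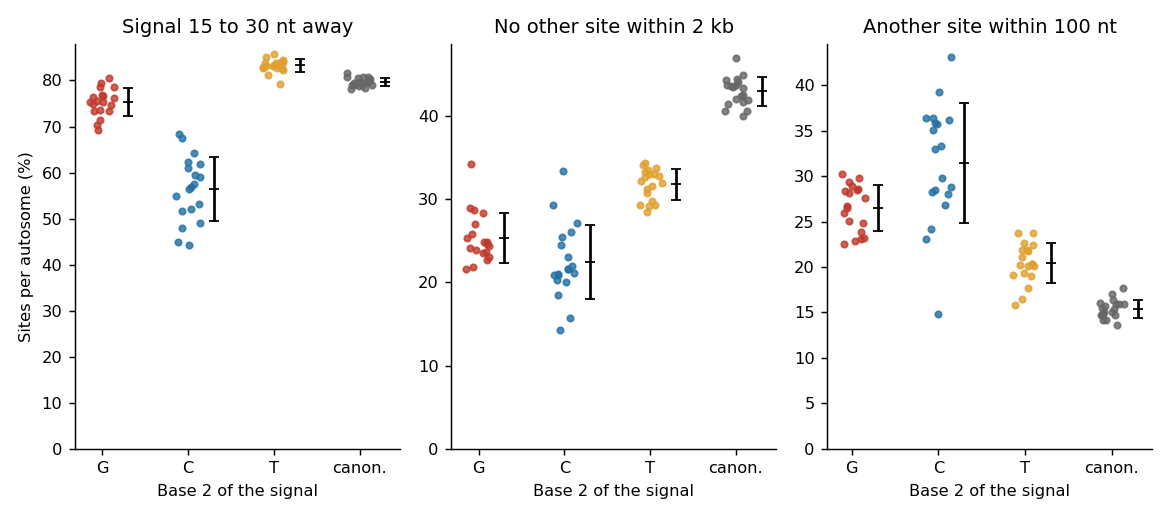
Percent of sites on each of the 19 autosomes (points) that have the signal 15 to 30 nt away, no other site of the strand within 2 kb, or another site within 100 nt, for signals with G, C or T at base 2 and the canonical signal, with mean and SD as bars. The points of the G and C variants do not overlap in the first panel (69.2 to 80.5% against 44.2 to 68.3%) and overlap in the other 2.

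Both variants were mostly found in groups of neighbouring sites, and less often than ATTAAA and AATAAA as the last of a group. Sites on a strand were joined into a run where the gap between them was at most 2 kb. Of AGTAAA sites 25.1% were lone (interval 23.9 to 26.3%), 19.7% were the most upstream site of a run, 39.2% lay in the middle and 16.0% were the most downstream. Of ACTAAA sites 23.1% were lone (interval 20.99 to 25.4%), 19.3% most upstream, 44.4% in the middle and 13.1% most downstream. In contrast, 31.8% of ATTAAA and 43.1% of AATAAA sites were lone. The lone share of members minus that of ATTAAA was -7.05 percentage points ± 2.24, and minus that of AATAAA -18.2 ± 3.14, both negative on 19 of 19 autosomes (adjusted p = 2.6e-05 for both, permutation test).

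Among sites in runs, members were the most downstream one in 20.4% of cases (interval 19.3 to 21.5%), against 28.1% for ATTAAA and 37.1% for AATAAA. The differences were -7.55 percentage points ± 2.42 (negative on 18 of 19 autosomes) and -16.8 ± 2.69 (19 of 19), each with adjusted p = 2.6e-05 (permutation test). Between the variants, AGTAAA was the most downstream site in 21.3% and ACTAAA in 17.1% of cases. This difference of 4.68 percentage points ± 4.94 was positive on 17 of 19 autosomes (adjusted p = 0.00172, permutation test), but 3.48 with runs joined at 0.5 kb (adjusted p = 0.0626).

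The lone shares of the variants differed by 2.88 percentage points ± 6.03, higher for AGTAAA on 14 of 19 autosomes, which did not pass the threshold (adjusted p = 0.0792, permutation test). The difference passed it at 7.63 percentage points when only sites with the hexamer 15 to 30 nt away were compared (adjusted p = 7.09e-05), at 6.14 with runs joined at 0.5 kb (adjusted p = 0.0101) and at 5.21 without the sites of both variants at 71 to 74 nt (adjusted p = 0.0016), each by the permutation test. The last of these rises by construction, since 45 of the 62 ACTAAA sites left out were lone, against 12 of 56 AGTAAA sites, so it is no separate support.

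**Figure D4:**
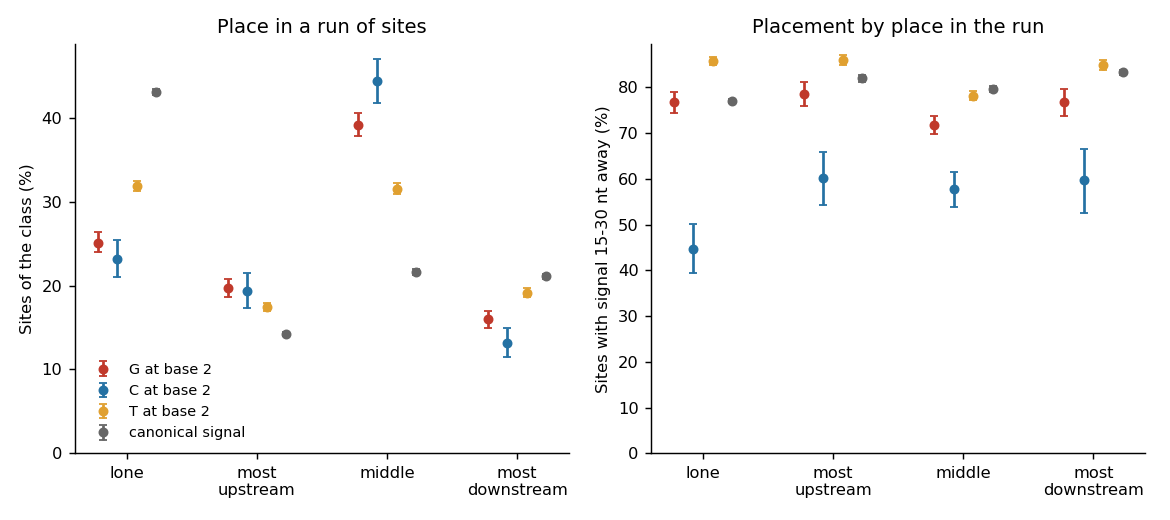
Left, percent of sites of each class that are lone or stand most upstream, in the middle or most downstream in a run of sites joined by gaps of at most 2 kb; right, percent of the sites in each place that have the signal 15 to 30 nt away, with 95% Wilson intervals as bars. Lone C-variant sites have the lowest value on the right, 44.8%, against 76.8% for lone G-variant sites.

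The gap in placement between the variants was wider among lone sites than among sites in runs. Lone AGTAAA sites had the hexamer at 15 to 30 nt in 963 of 1254 cases (76.8%, interval 74.4 to 79.0%), and those in runs in 74.7% (interval 73.3 to 76.1%). Lone ACTAAA sites had it there in 145 of 324 cases (44.8%, interval 39.4 to 50.2%), and those in runs in 58.7% (interval 55.7 to 61.6%). The gap among lone sites exceeded that in runs by 16.3 percentage points ± 11.8, on 18 of the 19 (permutation test, adjusted p = 0.00012). Without the sites of both variants at 71 to 74 nt the excess was 8.94 (permutation test, adjusted p = 0.0258). For both variants the share was similar at the most upstream and the most downstream sites of runs, with 78.7% and 76.9% for AGTAAA and 60.1% and 59.8% for ACTAAA.

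Members had close neighbours more often than ATTAAA and AATAAA sites. Another site of the strand lay within 100 nt of 27.7% of members (interval 26.6 to 28.8%), of 20.4% of ATTAAA sites and of 15.3% of AATAAA sites. The difference was 7.20 percentage points ± 2.93 from ATTAAA and 12.2 ± 2.18 from AATAAA, positive on 19 of 19 autosomes in both (adjusted p = 2.6e-05, permutation test). The share was 26.8% for AGTAAA and 30.8% for ACTAAA, a difference of -4.88 percentage points ± 7.35 that was negative on 16 of 19 autosomes (adjusted p = 0.0186, permutation test). That call was lost on the minus strand alone (adjusted p = 0.268) and with neighbours within 50 nt (adjusted p = 0.0623, permutation test). The nearest site of the strand lay at a median gap of 359 nt for AGTAAA, 272 nt for ACTAAA, 622 nt for ATTAAA and 1272 nt for AATAAA.

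Sites with AGTAAA had the canonical signal more often downstream than upstream of them, as did sites with the T variant. Within 100 nt, 750 AGTAAA sites had an upstream and 799 a downstream neighbour. The upstream neighbour had AATAAA in 11.6% of cases (interval 9.50 to 14.1%) and the downstream neighbour in 26.7% (interval 23.7 to 29.8%). For ACTAAA, with 252 upstream and 272 downstream neighbours, these shares were 13.1% (interval 9.48 to 17.8%) and 15.4% (interval 11.6 to 20.2%), with intervals that overlap. For ATTAAA sites they were 12.9% and 32.2%. None of these differences was tested. The search order limits this comparison, since a site with AATAAA of an upstream neighbour within reach is listed with AATAAA and is no member. Over 2 kb, which mostly lies beyond that reach, the next site downstream of AGTAAA had AATAAA in 36.1% of cases and the next site upstream in 27.7%, while for ACTAAA the shares were 29.8% and 24.1%. They were 40.8% and 31.1% for the T variant, which thus showed an excess downstream too. For the canonical signal they were 51.8% and 43.4%, but the same 12094 adjacent pairs are counted on both sides. Those shares differ only because 23367 canonical sites had a downstream and 27866 an upstream neighbour. The values over 2 kb still include the neighbours within 100 nt, for AGTAAA 799 of 2940 downstream and 750 of 2753 upstream.

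Some close neighbours were listed with the member's own hexamer. Of neighbours within 100 nt, AGTAAA was listed for 26.8% of those upstream (interval 23.8 to 30.1%) and 25.2% of those downstream of an AGTAAA site. ACTAAA was listed for 18.7% (interval 14.3 to 23.9%) and 17.3% of those of an ACTAAA site. For the T variant these shares were 37.8% and 40.0%, and for the canonical signal 49.6% and 66.4%. Such a pair may be 1 hexamer listed for both sites: the distances allowed this in 156 of 201 AGTAAA pairs (77.6%, interval 71.4 to 82.8%) and in 41 of 47 ACTAAA pairs (87.2%, interval 74.8 to 94.02%). They allowed it in 604 of 1023 ATTAAA pairs (59.0%) and in 1463 of 3140 AATAAA pairs (46.6%). The variants stood next to each other within 100 nt in 15 pairs with ACTAAA upstream and in 15 with AGTAAA upstream. Of 25530 runs, 3966 held a member (15.5%), 215 held both variants and 49 held members only.

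**Figure D5:**
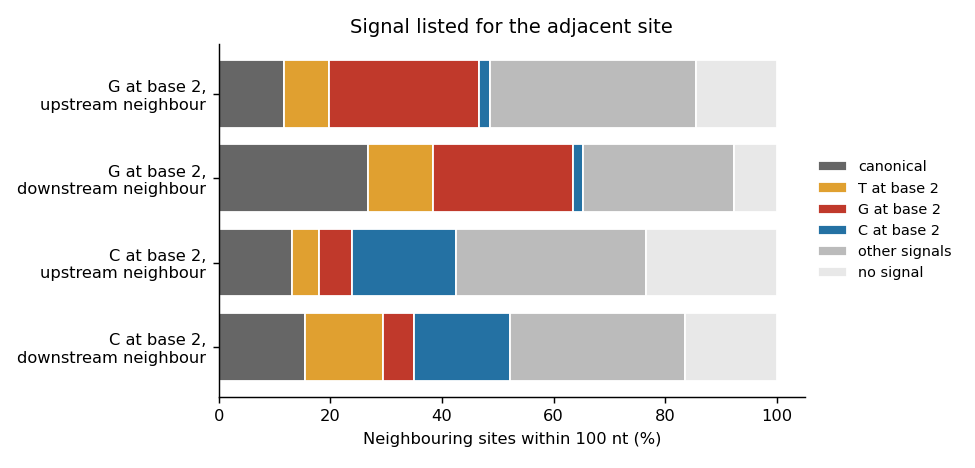
Percent of adjacent sites within 100 nt by the signal listed for them, for the upstream and downstream neighbours of sites with G or C at base 2 (750, 799, 252 and 272 neighbours from top to bottom). The canonical signal makes up 11.6% of upstream and 26.7% of downstream neighbours of the G variant.

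Members with a near hexamer were compared with members whose hexamer lay far away. A neighbour within 100 nt was present for 24.7% of the 4533 members at 15 to 30 nt (interval 23.4 to 25.9%) and for 39.2% of the 879 members at 61 to 100 nt (interval 36.1 to 42.5%). With both variants pooled, the mean of the differences within autosomes was -15.4 percentage points ± 5.47, negative on 19 of 19 autosomes (adjusted p = 2.6e-05, permutation test). It came to -0.516 when sites that may share the hexamer of an upstream site were left out (adjusted p = 0.816, permutation test), a step that removes sites with a neighbour only. By variant, the share was 23.7% near (interval 22.3 to 25.1%) and 43.8% far (interval 39.7 to 47.98%) for AGTAAA, and 29.5% near (interval 26.4 to 32.8%) and 31.7% far (interval 26.9 to 36.9%) for ACTAAA. An upstream neighbour within 100 nt was found for 11.8% of near and 34.5% of far AGTAAA sites, and for 15.96% (interval 13.6 to 18.7%) and 21.8% (interval 17.6 to 26.5%) of ACTAAA sites. This contrast was wider for ATTAAA, at 9.23% near and 50.5% far, and for AATAAA, at 8.15% and 58.3%. It is thus not particular to members. For downstream neighbours the near and far values were 14.9% and 19.3% with AGTAAA, and 18.5% and 20.5% with ACTAAA. Near and far members also differ in make-up, since ACTAAA supplied 17.1% of the near and 37.7% of the far ones.

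The lone share of near and far members ran in opposite directions in the 2 variants. Of AGTAAA sites 25.6% were lone where the hexamer was near (interval 24.3 to 27.1%) and 20.3% where it was far (interval 17.1 to 23.8%). Of ACTAAA sites 18.7% of the near (interval 16.1 to 21.6%) and 32.9% of the far ones (interval 28.1 to 38.2%) were lone, and 23.8% of the far ones without those at 71 to 74 nt (interval 19.1 to 29.2%). The same counts enter the comparison of lone sites and runs tested above. With both variants pooled these directions offset each other, and lone sites made up 24.4% of near and 25.03% of far members. The mean of the differences within autosomes was 0.045 percentage points ± 10.1 (adjusted p = 0.985, permutation test). Among members in runs the most downstream sites made up 21.1% of the near and 19.3% of the far ones (difference 0.702 ± 8.41, adjusted p = 0.816, permutation test). With runs joined at 0.5 kb the pooled lone share was higher for near members by 6.01 percentage points (adjusted p = 0.0105, permutation test).

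Clusters of members were slightly narrower than AATAAA clusters by mean log2 width. The width of a cluster is the stretch over which its RNA ends were joined. The median was 9 nt for AGTAAA (quartiles 3 and 19 nt) and 9 nt for ACTAAA (quartiles 3 and 23 nt), and 12.7% and 12.6% were 1 nt wide. For ATTAAA it was 9 nt (quartiles 3 and 19 nt) and for AATAAA 10 nt (quartiles 4 and 21 nt), and 11.4% and 9.94% were 1 nt wide. Mean log2 width was 2.95 for AGTAAA and 3.06 for ACTAAA, a difference of -0.088 ± 0.26 (adjusted p = 0.204, permutation test). Members and ATTAAA, both at 2.97, differed by 0.0081 ± 0.12 (adjusted p = 0.845), and this rose to 0.061 among clusters wider than 1 nt (adjusted p = 0.0223, permutation test). AATAAA clusters were wider, at 3.12, and the members minus AATAAA gave -0.14 ± 0.12, negative on 16 of 19 autosomes (adjusted p = 0.000737, permutation test). Among clusters wider than 1 nt this difference was smaller, at -0.058 (adjusted p = 0.0375, permutation test). Near members had a mean of 2.91 and far members of 3.01, a difference of -0.16 ± 0.44 (adjusted p = 0.147, permutation test). It was -0.29 on the minus strand (adjusted p = 0.0128), -0.38 among clusters wider than 1 nt (adjusted p = 4.73e-05) and -0.18 with far sites from 41 nt on (adjusted p = 0.0381, permutation test).

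A site of the opposite strand within 1 kb was present for 13.6% of AGTAAA and 13.7% of ACTAAA sites, with a difference of -0.033 percentage points ± 4.42 (adjusted p = 0.985, permutation test). Members, at 13.6%, differed from ATTAAA at 12.6% by 1.08 ± 2.50 (adjusted p = 0.107) and from AATAAA at 13.1% by 0.514 ± 2.13 (adjusted p = 0.377, permutation test). Near and far members, at 13.3% and 13.1%, differed by 0.511 ± 5.06 (adjusted p = 0.781, permutation test). None of these 4 differences passed the threshold at 1 kb. Within 3 kb the first 3 did. AGTAAA minus ACTAAA was then -4.92 percentage points (negative on 16 of 19 autosomes, adjusted p = 0.00888, permutation test). Members exceeded ATTAAA by 3.11 (adjusted p = 0.00068) and AATAAA by 3.12 (adjusted p = 0.000118), each on 16 of 19 autosomes by the permutation test.

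Single sites show the range of the members, with mm9 coordinates and starts counted from 1. The widest AGTAAA cluster lay on the minus strand of chromosome 13 from 23837526 to 23837918, was 393 nt wide and had the hexamer at 13 nt. The widest ACTAAA cluster was on chromosome 1, plus strand, between 162965591 and 162965900. It was 310 nt wide and had it at 10 nt. Both were the most upstream site of their run. The run of the ACTAAA cluster reached to 162968687, held 17 sites, and was also the first of 3 runs with the most ACTAAA sites, 3 each; it held 2 AGTAAA sites and 1 AATAAA site as well. None of its ACTAAA sites had the hexamer at 15 to 30 nt.

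The most AGTAAA sites in a run, 7, lay on the minus strand of chromosome 1 between 88239954 and 88254802. That run held 76 sites in all, of which 4 had AATAAA, 1 ACTAAA and 14 no hexamer. Of its AGTAAA sites 5 had the hexamer at 15 to 30 nt. At the other extreme, an ACTAAA site on the minus strand of chromosome 4 from 50868069 to 50868070, with the hexamer at 40 nt, was 957272 nt from the nearest site of its strand. The AGTAAA site with the largest listed gap, 2434657 nt, lay on an unplaced sequence of the Y chromosome, with the hexamer at 66 nt. Because that sequence is unplaced, the gap need not be a distance on the chromosome. Neither this site nor the one on chromosome 4 had its hexamer in the main window. Which genes lie at these positions was not analysed here.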

How the data were processed

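The authors deposited 1 table of joined poly(A) sites without library values. Per the file headers it gives positions in nt, strand, hexamer and hexamer distance in nt. The submitters' processing notes name Trimmomatic, STAR, bedtools and the mm9 build. How read ends were joined and internal priming filtered is not given in the sources used here. A-rich false ends that were kept remain in the values. Width was end minus start.

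The members, comparisons and lists were chosen with earlier results of these data known. Shares have 95% Wilson intervals, which cover counting error only. Differences were taken within each of 19 autosomes and tested with a 2-sided sign-flip permutation test (100000 resamples, smallest p 1e-05), adjusted by Benjamini-Hochberg over 26 comparisons, with 0.05 as threshold. The gap between the variants in lone sites against runs was tested later, with adjustment over 2 such tests. The test was checked on simulated data. Named sites were, for each hexamer, the widest cluster, the most isolated site and the run with most such sites, outside chromosome 18. The 3 mitochondrial member sites were left out. Scripts ran in Python 3.11.15 with scipy 1.17.1, numpy 2.4.6 and pandas 2.3.3.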

Additional observations from a re-analysis of the deposited data

Results flagged for a closer look

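The gap between the variants in how often the hexamer lay at 15 to 30 nt was wider among lone sites than in runs. AGTAAA exceeded ACTAAA by 31.6 percentage points ± 11.8 (SD over 19 autosomes) among lone sites and by 15.3 ± 6.24 among sites in runs. The difference of these differences was 16.3 percentage points ± 11.8, positive on 18 of 19 autosomes (adjusted p = 0.00012, permutation test, over 2 such tests). The other test, between strands, gave -1.77 ± 11.6 (adjusted p = 0.522, permutation test). Both tests were chosen after the shares had been seen. Without the ACTAAA sites at 71 to 74 nt, most of them lone, the first came to 9.30 ± 14.01, positive on 15 of the 19 (permutation test, adjusted p = 0.0235). It came to 8.94 ± 13.7 without the sites of both variants there (permutation test, adjusted p = 0.0258). What lies behind it was not tested.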

How the results depend on the processing

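The 26 comparisons were recomputed under 184 alternatives, 172 planned and 12 added after the data were seen. In 162 of them the direction, where a call was made, and the side of the threshold were kept, and 14 comparisons kept them throughout. No call was reversed. The share at 15 to 30 nt, and the lone and most-downstream shares of members against ATTAAA and AATAAA, kept their calls in all alternatives run. The calls that were lost had these differences: mean distance of the G minus the C variant -0.262 (minus strand), -0.381 (10 to 35 nt) and -0.325 (most downstream and lone sites); mean distance of members minus ATTAAA 0.12 (minus strand), 0.142 (10 to 35 nt) and 0.118 (most downstream and lone sites); G minus C share most downstream 3.48 (runs joined at 0.5 kb); G minus C share with a neighbour -3.11 (minus strand) and -3.25 (within 50 nt); near minus far share with a neighbour -0.516 (without sites that may share a hexamer). Calls were gained for the G minus C lone share at 6.14 (0.5 kb), 7.63 (hexamer at 15 to 30 nt), 5.11 (without ACTAAA sites at 71 to 74 nt) and 5.21 (without both variants there), for opposite-strand sites within 3 kb at -4.92 (G minus C), 3.11 (members minus ATTAAA) and 3.12 (members minus AATAAA), for the near minus far lone share at 6.01 (0.5 kb), for near minus far log2 width at -0.29 (minus strand), -0.38 (wider than 1 nt) and -0.18 (far from 41 nt), and for log2 width of members minus ATTAAA at 0.061 (wider than 1 nt). The cause was not tested. A single strand and the most downstream sites leave fewer sites, but other alternatives changed calls too. Leaving out sites that may share a hexamer removes sites with a neighbour only, which lowers the share with a neighbour by construction. No paired analysis was possible because the catalogue holds no value per library.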

Other observations

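ACTAAA distances had a local peak that AGTAAA distances lacked. At 71, 72, 73 and 74 nt there were 16, 6, 16 and 24 ACTAAA sites, or 15.5 per nt, against 7.47 per nt at the other distances from 61 to 100 nt. AGTAAA stood at 14 and 13.7 sites per nt in the same ranges. The 62 ACTAAA sites of the peak were spread over 21 chromosomes or unplaced sequences, with 28 on the plus and 34 on the minus strand. Of them 45 were lone (72.6%, interval 60.4 to 82.1%), against 64 of the 269 other ACTAAA sites at 61 to 100 nt (23.8%, interval 19.1 to 29.2%). Their median gap to the nearest site of the strand was 14398 nt, against 228 nt for those other sites. At 73 nt 15 of 16 sites were lone. The range was picked because of the profile, so these values are a description, and the sequence around the sites was not analysed here. Without these sites, 52.0% of the remaining 279 lone ACTAAA sites had the hexamer at 15 to 30 nt (interval 46.1 to 57.8%).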
